A study of Mus musculus with 6 samples.

Results

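Sorting nexins and VPS (vacuolar protein sorting) proteins carry membrane proteins between endosomes, lysosomes, the Golgi and the cell surface. They were taken here as the probe sets that the array annotation pairs with exactly 1 gene whose symbol is Snx or Vps followed by a digit. The rule found 80 probe sets of 22690 in all, for 49 genes of 12393, namely 21 Snx and 28 Vps genes. It used symbols and no measured value. Vps72 shares the name only, since it encodes a chromatin remodelling subunit and not a sorting protein.

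The study compared livers of 3 transgenic mice with livers of 3 wild-type mice at postnatal day 9, with 1 array per liver. Transgenic mice were bred from a conditional Tcfeb overexpression line and the Alb-Cre line, in which the albumin promoter drives Cre recombinase. The overexpression was therefore directed to liver cells that use that promoter, and the wild-type livers are described without further alleles. Tcfeb, now Tfeb, encodes TFEB, a transcription factor that activates lysosomal and autophagy genes, and the comparison asks what its excess does to liver gene expression.

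In the sorting pathway, retromer and Retriever return cargo from endosomes, and Snx proteins bind endosomal lipids, bend the membrane into tubules and select cargo. HOPS and CORVET tether endosomes and lysosomes before they fuse, GARP and EARP tether returning vesicles, and ESCRT complexes fold receptors into vesicles inside the endosome on the way to the lysosome. In liver this traffic sets the fate of plasma protein receptors and lysosomal enzyme receptors.

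Levels are on the log2 scale of the deposited RMA values, and ± gives the SD over the 3 arrays of a group. Each difference is a transgenic mean minus a wild-type mean, on which 1 unit is a doubling, and SE is its standard error in limma. "Rose" and "fell" are used of genes past an adjusted p of 0.05. The arrays had nearly equal medians, 6.78 to 6.79 in transgenic and 6.74 to 6.76 in wild-type livers. Their spread differed by group. Lower quartiles were 4.74 to 4.80 in transgenic and 4.88 in wild-type livers, and upper quartiles 8.67 to 8.69 against 8.60 to 8.62. Alb, the albumin gene, read 14.87 ± 0.01 in transgenic and 14.87 ± 0.03 in wild-type livers, near the top of each array. Tfeb read 6.52, 6.61 and 6.36 in transgenic livers, against 6.91, 6.63 and 6.58 in wild-type livers. Its 1 probe set was thus not higher in the transgenic group (-0.21, SE 0.11, adjusted p = 0.168), and since the labels do not say which part of the gene was inserted, this reading does not settle how much was expressed. Transgenic replicate 1 stood apart in sex-linked genes, with Xist at 5.58 against 13.03 to 13.19 in the other arrays. The Y-linked gene Eif2s3y read 9.32 there, against 3.06 to 3.43 in the others. By these genes that liver was male and the others female, so sex was not balanced between the groups. All 14 probe sets of the bacterial hybridisation controls were lower in every transgenic array, by a median of -0.37. Scaling the arrays to them moved the median difference of all genes by 0.37, to 0.33.

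Marker lists of several liver cell types also held called genes, to be read beside 19.9% higher and 20.4% lower of all genes. The cholangiocyte list had 4 of 5 measured genes higher. Its summed level was 11.18 to 11.62 in transgenic against 8.43 to 9.62 in wild-type livers, on the log2 scale. Cldn4 (10.53 ± 0.32 against 5.92 ± 0.54) weighs most in the transgenic sum, and Krt19 did not pass (-0.27). The granulocyte list had 5 of 6 lower, at 11.27 to 12.46 against 13.34 to 14.47, and the lymphoid list 4 of 5 lower, at 9.67 to 9.95 against 10.12 to 10.64. The hepatocyte list had 5 of 7 lower, at 16.44 to 16.47 against 16.69 to 16.71. The endothelial list had 1 higher and 4 lower of 6, at 11.59 to 11.73 against 11.78 to 11.83, and the erythroid list 3 of 4 higher, at 9.24 to 9.29 against 9.05 to 9.38. The erythroid sums overlapped, and Alas2, the brightest measured gene of that list, did not pass (-0.28). The macrophage and stellate lists each had 2 of 6 lower, with overlapping sums of 13.29 to 13.64 against 13.55 to 13.91 and 13.19 to 13.29 against 13.26 to 13.39. RMA values have no zero, so no marker can be called absent, and the part of these lists in the results below was not tested. Fewer cells of a type and less RNA per cell cannot be told apart in whole liver.

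More sorting genes rose than fell in transgenic liver. Of 49 genes, 19 rose, 6 fell and 24 did not pass, against 19.9% higher and 20.4% lower of all 12393 genes tested. In shares, 38.8% of the sorting genes rose and 12.2% fell, and 51.0% were called in either direction against 40.3% of all genes. In 30 of the 49 genes (61.2%) all transgenic arrays lay to one side of all wild-type arrays, which held for 53.7% of all genes. The changes were small: the differences ran from -0.48 for Vps37b to 0.74 for Snx16, so no gene reached a doubling. The median difference was 0.13, against -0.04 over all genes, and 35 of 49 differences were above 0. Snx genes had a median of 0.26, with 11 of 21 higher and 2 lower, and Vps genes had 0.08, with 8 of 28 higher and 4 lower. These directions are relative to the deposited scale. Scaled to the bacterial controls, 41 sorting genes were higher and 0 lower, against 56.6% higher and 5.25% lower of all genes. Their median was then 0.50, against 0.33 for all genes, a gap that the same shift of every gene leaves unchanged. Without transgenic replicate 1, 15 sorting genes were higher and 3 lower, against 16.9% and 16.7% of all genes.

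**Figure D1:**
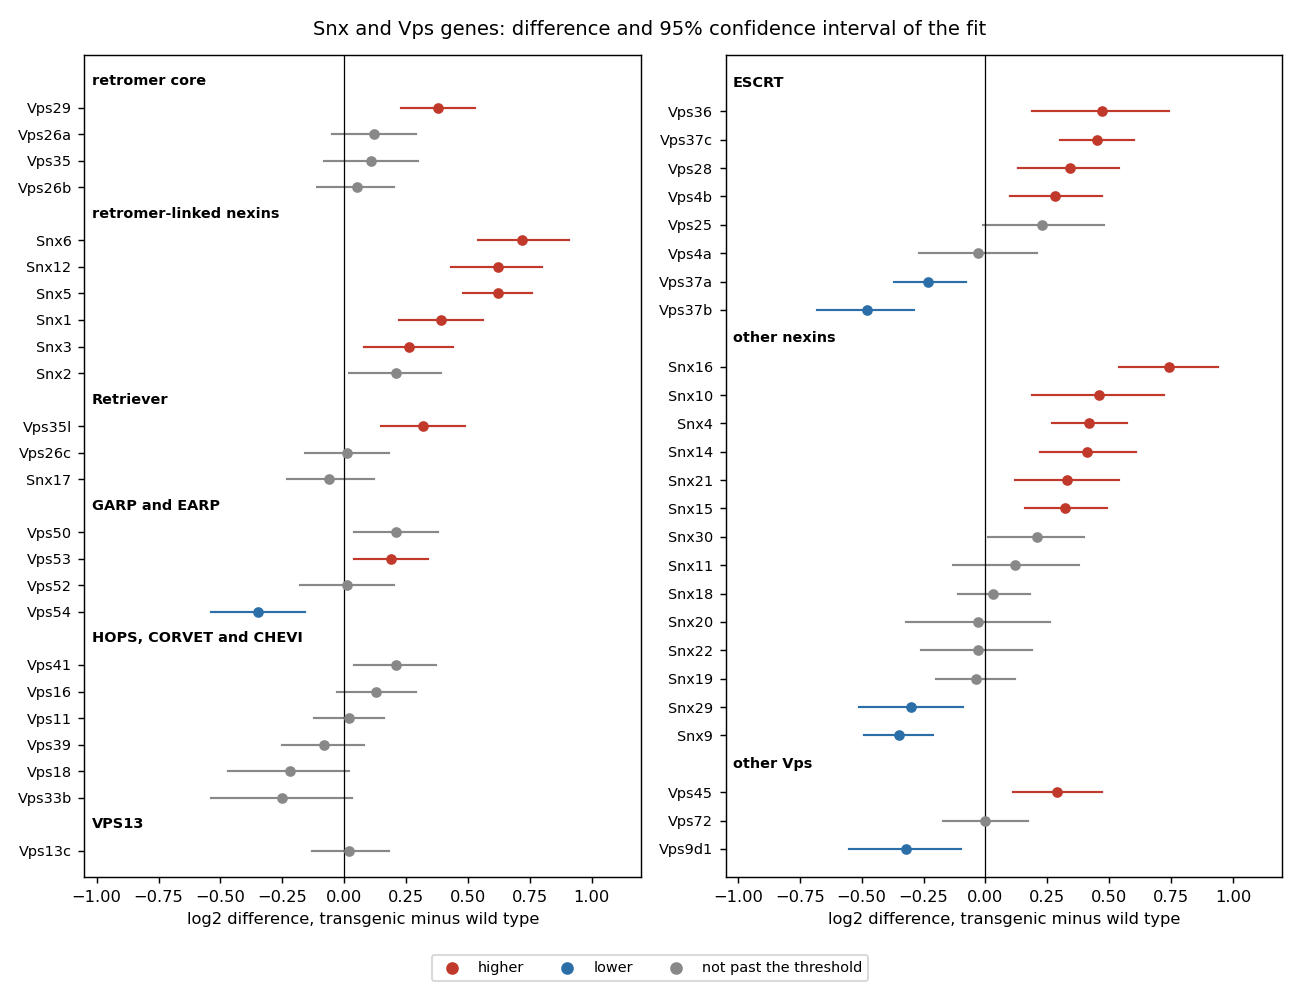
Log2 difference, transgenic minus wild type, of each of the 49 Snx and Vps genes by complex. Points are fitted differences and lines are 95% confidence intervals (n = 3 arrays per group), coloured red for genes higher, blue for genes lower and grey for genes not past an adjusted p of 0.05. Retromer-linked nexins lie between 0.21 and 0.72, while HOPS, CORVET and CHEVI genes lie between -0.25 and 0.21 with none called.

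The sorting genes were brighter than most genes, with a median brightness percentile of 63.8, and in this comparison bright genes had higher differences than dim ones. Among the 60% brightest genes, a background chosen after the data were seen, 19 of 38 sorting genes rose and 5 fell (63.2% in either direction), against 28.5% higher, 20.3% lower and 48.8% in either direction of all bright genes. The groups were apart for 28 of the 38, or 73.7%, against 62.9% of all bright genes. A new fit to the bright genes alone called 22 sorting genes higher and 5 lower, against 31.4% and 22.3% of all bright genes. The median difference there was 0.21 for sorting genes and 0.06 for all bright genes. Of the 11 dimmer sorting genes, 0 rose and 1 fell (limma), against 6.96% higher and 20.5% lower of all dim genes. How far brightness accounts for the shares over all genes was not tested beyond these values.

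**Figure D2:**
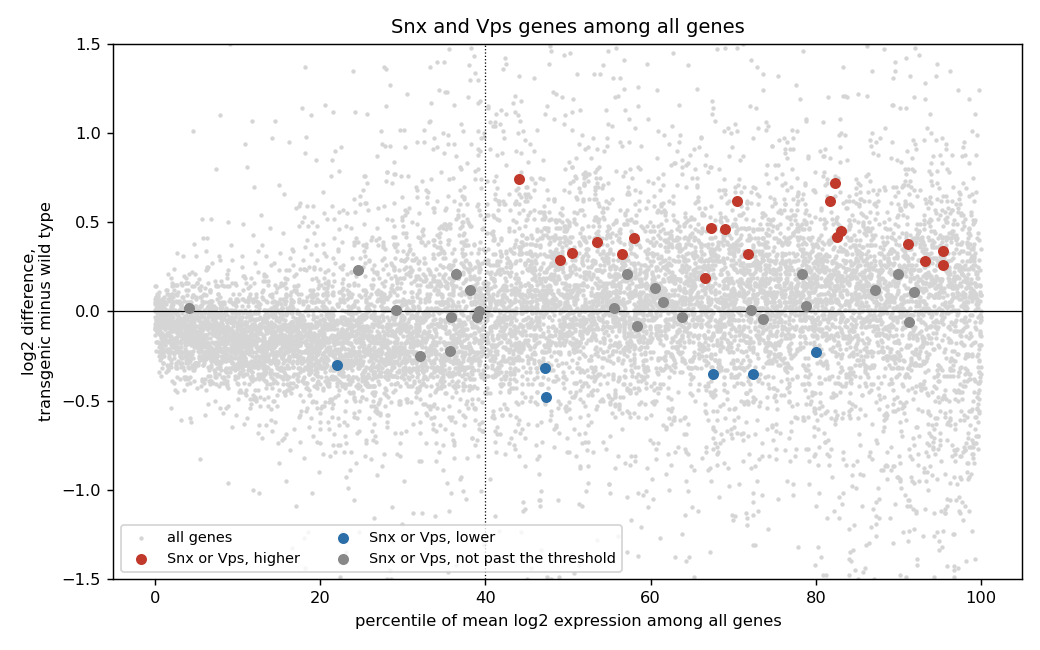
Log2 difference, transgenic minus wild type, against the percentile of mean expression among all 12393 genes (grey points, those beyond 1.5 in either direction not drawn). Larger points are the 49 Snx and Vps genes in the same colours as their calls, and the dotted line marks the 40% dimmest genes. All 19 genes that rose lie to the right of that line.

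Most nexins that work with retromer rose. Of the 6 measured of 8 listed (Snx27 and Snx32 were not analysed here), 5 rose and 0 fell, against 19.9% higher and 20.4% lower of all genes. Their groups did not overlap for any of the 6, which held for 53.7% of all genes. The median difference was 0.50, against -0.04 over all genes, and 0.23 over the 4 genes left without probe sets whose suffix marks shared probes. Those suffixes were _a_at, _s_at and _x_at, of which _a_at marks probes shared by transcripts of the same gene. Snx1 and Snx12, left out there, had only _a_at probe sets. Snx1, Snx2, Snx5 and Snx6 encode BAR-domain nexins, in which Snx1 or Snx2 pairs with Snx5 or Snx6 to form membrane tubules.

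Snx6 read 9.99, 9.91 and 10.10 in transgenic livers, against 9.33, 9.18 and 9.34 in wild-type livers. Snx5 read 9.91, 9.87 and 9.92 in transgenic livers, against 9.26, 9.30 and 9.29 in wild-type livers. In both genes every transgenic array lay above every wild-type array. Snx6 rose by 0.72 (SE 0.08, adjusted p = 0.000395), a 1.65-fold difference, and Snx5 rose by 0.62 (SE 0.06, adjusted p = 0.000215), or 1.54-fold.

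Snx1 averaged 7.81 ± 0.05 in transgenic and 7.42 ± 0.09 in wild-type livers, a rise of 0.39 (SE 0.07, adjusted p = 0.00452). Snx2 averaged 10.54 ± 0.03 in transgenic and 10.34 ± 0.12 in wild-type livers. Its difference of 0.21 (95% confidence interval 0.02 to 0.39, adjusted p = 0.0728) did not pass, although its groups did not overlap. It passed when the 40% dimmest genes were left out (adjusted p = 0.0472) and with the trend and robust options of limma (adjusted p = 0.0435).

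Snx3 and Snx12 encode closely related nexins with a lipid-binding PX domain and no BAR domain, of which SNX3 hands cargo such as the WNT carrier Wntless to retromer. Snx12, X-linked in the RefSeq table, read 8.97, 9.0 and 9.15 in transgenic livers, against 8.49, 8.34 and 8.44 in wild-type livers. It rose by 0.62 (SE 0.08, adjusted p = 0.000767) and by 0.65 without transgenic replicate 1, the array that stood apart in sex-linked genes. Snx3 averaged 11.59 ± 0.11 in transgenic and 11.34 ± 0.05 in wild-type livers, a rise of 0.26 (adjusted p = 0.0315). That call was lost without transgenic replicate 1 or 2 or wild-type replicate 1 or 2, when the difference was 0.20 to 0.26 (adjusted p = 0.069 to 0.0915).

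In the retromer core 1 of 4 genes rose and 0 fell, against 19.9% higher and 20.4% lower of all genes. The 4 differences ran from 0.05 to 0.38 with a median of 0.12. That median was 0.06 over the means of probe sets and also without wild-type replicate 1. Vps35 encodes the backbone of the core, and read 10.86, 10.76 and 10.73 in transgenic livers, against 10.54, 10.72 and 10.76 in wild-type livers. Vps26a and Vps26b encode alternative arrestin-like subunits. Vps26a read 10.17, 10.22 and 10.10 in transgenic livers, against 9.95, 10.13 and 10.04 in wild-type livers. Vps26b read 8.12, 8.17 and 8.20 in transgenic livers, against 8.10, 8.18 and 8.07 in wild-type livers. The groups of these 3 genes overlapped. Their 95% intervals were -0.08 to 0.30 for Vps35, -0.05 to 0.29 for Vps26a and -0.11 to 0.20 for Vps26b, so a rise as large as the 0.62 of Snx5 lies outside them.

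Vps29 encodes the small subunit that retromer and Retriever share. Its brightest probe set read 10.80, 10.78 and 10.81 in transgenic livers, against 10.35, 10.41 and 10.48 in wild-type livers, with no overlap and a rise of 0.38 (SE 0.07, adjusted p = 0.00313). Its 4 probe sets did not agree: a second rose by 0.40, another fell by 0.35 (SE 0.07, adjusted p = 0.00815 over all probe sets) and the last, dim at a mean of 3.12, differed by -0.03. Over the mean of the 4 the difference was 0.10 (adjusted p = 0.22), so the direction of Vps29 rests on the probe sets used.

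**Figure D3:**
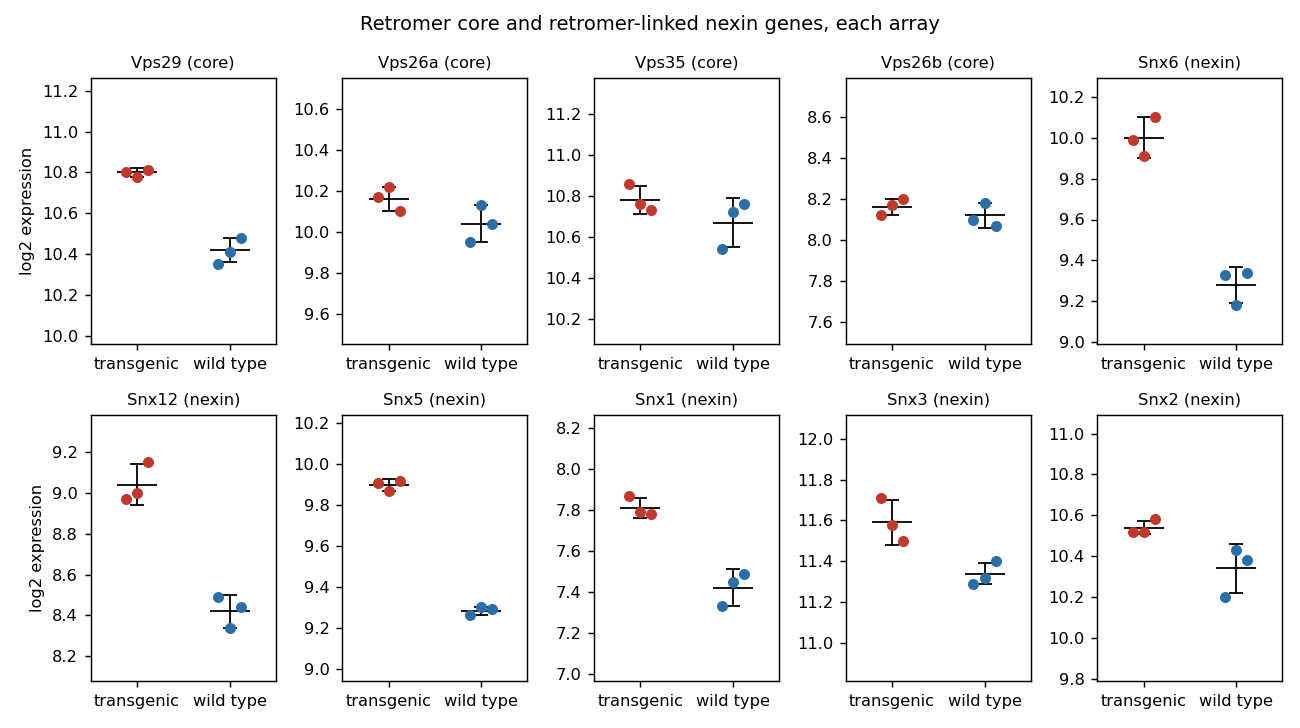
Log2 expression of the 4 retromer core and 6 retromer-linked nexin genes in each transgenic (left) and wild-type (right) array; horizontal bars are means and error bars SD (n = 3). Every panel spans the same log2 range around its own level, and the groups are separate for Vps29 and the 6 nexins and overlap for Vps26a, Vps35 and Vps26b.

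Promoter sequence is shown for this group because Snx5 and Snx6 both rose, and because TFEB is known to bind E-box motifs with the core CACGTG. RefSeq windows of build GRCm38.p6, from 250 bases before to 50 after a transcription start, were available for 33 of the 49 genes. This motif reads the same on both strands, so 1 search covers both. It was found for 5 of 33 genes (15.2%), Snx5, Snx18, Vps16, Vps26a and Vps50, against 8.09% of 27025 genes with a window. That background is not limited to the 12393 genes measured here, so the shares come from unlike sets of genes. Vps16 and Vps26a are printed as genes that hold the motif and did not pass, and Snx6 as one that rose without it. Of the 5 genes with the motif, only Snx5 passed the threshold in these livers, while 14 other genes that rose have a window without it, Snx6 among them. Below, capitals mark the motif and each sequence runs 5′ to 3′ along the gene. The motif of Snx5 starts at -50 from the transcription start and that of Vps16 at -18.
Snx5, chr2:144270523-144270822, minus strand: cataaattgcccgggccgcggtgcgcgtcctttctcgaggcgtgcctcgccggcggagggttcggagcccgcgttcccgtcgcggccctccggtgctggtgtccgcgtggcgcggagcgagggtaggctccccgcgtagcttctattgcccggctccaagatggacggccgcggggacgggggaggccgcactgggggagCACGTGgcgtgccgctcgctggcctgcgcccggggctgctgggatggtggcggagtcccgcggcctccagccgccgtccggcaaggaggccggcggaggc
Snx6, chr12:54795613-54795912, minus strand: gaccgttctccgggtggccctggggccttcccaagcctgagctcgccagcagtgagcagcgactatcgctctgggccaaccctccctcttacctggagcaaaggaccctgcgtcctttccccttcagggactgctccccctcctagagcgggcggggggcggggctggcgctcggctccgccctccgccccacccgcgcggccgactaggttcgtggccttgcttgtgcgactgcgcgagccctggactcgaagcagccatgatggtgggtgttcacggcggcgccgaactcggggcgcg
Vps16, chr2:130424070-130424369, plus strand: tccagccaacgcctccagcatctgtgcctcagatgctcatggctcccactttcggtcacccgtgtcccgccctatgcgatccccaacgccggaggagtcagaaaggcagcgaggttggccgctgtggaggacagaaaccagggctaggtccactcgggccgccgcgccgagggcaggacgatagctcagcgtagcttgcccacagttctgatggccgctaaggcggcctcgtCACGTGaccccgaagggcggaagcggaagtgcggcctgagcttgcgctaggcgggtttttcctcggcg
Vps26a, chr10:62486549-62486848, minus strand: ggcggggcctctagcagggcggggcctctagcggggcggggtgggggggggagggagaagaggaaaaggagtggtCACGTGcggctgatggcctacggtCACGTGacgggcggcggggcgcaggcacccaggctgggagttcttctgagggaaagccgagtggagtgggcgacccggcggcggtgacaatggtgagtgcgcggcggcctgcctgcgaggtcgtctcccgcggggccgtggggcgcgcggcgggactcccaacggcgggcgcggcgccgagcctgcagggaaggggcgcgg
The letters describe these windows only, and whether TFEB binds them was not measured.

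Retriever, the retromer relative that returns receptors chosen by the nexin SNX17, showed 1 change in 3 genes. Over all genes 40.3% were called in either direction. Vps35l, its backbone subunit, averaged 7.97 ± 0.02 in transgenic and 7.65 ± 0.10 in wild-type livers and rose by 0.32 (SE 0.07, adjusted p = 0.00988). Its second, dimmer probe set differed by -0.14, and over the mean of both the difference was 0.09 (adjusted p = 0.215). Vps26c differed by 0.01 (95% interval -0.16 to 0.18) and Snx17 by -0.06 (-0.23 to 0.12).

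Of the GARP and EARP genes, 4 of 5 were measured (Vps51 was not analysed here). Among these 1 was higher and 1 lower, against 19.9% and 20.4% of all genes. VPS52 and VPS53 are shared by both tethers, while VPS54 belongs to GARP and VPS50 takes its place in EARP. Vps54 read 8.24, 8.37 and 8.44 in transgenic livers, against 8.81, 8.67 and 8.62 in wild-type livers. It fell by 0.35 (SE 0.08, adjusted p = 0.0123), and its second probe set fell by 0.41. Vps50 averaged 7.96 ± 0.09 in transgenic and 7.75 ± 0.05 in wild-type livers, a difference of 0.21 (95% interval 0.04 to 0.38) that did not pass (adjusted p = 0.0527). It passed over the means of probe sets (adjusted p = 0.0462) and without the 40% dimmest genes (adjusted p = 0.0312). Vps52 differed by 0.01 (-0.18 to 0.20). Vps53 rose by 0.19 (SE 0.06) at the edge of the threshold (adjusted p = 0.0495), and its call was lost without any 1 of the 6 arrays (0.16 to 0.22, adjusted p = 0.0581 to 0.144). Its 2 dimmer probe sets differed by -0.01 and 0.00, and averaging the 3 gave 0.06. Scaled to the bacterial controls, the difference of Vps54 was 0.02 and the median of all genes 0.33, both moved by the same shift of 0.37.

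None of the 6 HOPS, CORVET and CHEVI genes passed the threshold by limma, against 40.3% of all genes. Vps8 and Vps33a were not analysed here. The median difference was -0.03, against -0.04 for all genes. Apart from the bacterial scaling it ran from -0.10 with quantile normalization again to 0.07 over the 4 genes left without the 40% dimmest. Scaled to the bacterial controls it was 0.34, against 0.33 for all genes. Vps11, Vps16 and Vps18 encode subunits common to HOPS and CORVET. Vps16 averaged 8.15 ± 0.04 in transgenic and 8.02 ± 0.07 in wild-type livers (0.13, 95% interval -0.03 to 0.29), without overlap. Vps11 differed by 0.02 (-0.12 to 0.16) and Vps18 by -0.22 (-0.47 to 0.02). Vps39 and Vps41 encode subunits of HOPS only. Vps41 averaged 9.39 ± 0.08 in transgenic and 9.18 ± 0.06 in wild-type livers, a difference of 0.21 just outside the threshold (adjusted p = 0.0504). It passed without the 40% dimmest genes (adjusted p = 0.029) and with the trend and robust options (adjusted p = 0.034). Its other 2 probe sets differed by 0.04 and -0.04. Vps39 differed by -0.08 (-0.25 to 0.08). Vps33b, which works with Vipas39 in the CHEVI complex, differed by -0.25 (-0.54 to 0.03). Vps18 passed without wild-type replicate 1 (-0.31, adjusted p = 0.0443).

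ESCRT genes moved in both directions, with a median difference of 0.26. Of 8 measured genes 4 rose and 2 fell, against 19.9% and 20.4% of all genes (Vps37d was not analysed here). The median was 0.10 over the 6 genes left without probe sets of shared-probe suffixes. The split ran through the ESCRT-I subunit VPS37, for which mammals have alternative genes. Vps37c read 9.88, 9.96 and 9.97 in transgenic livers, against 9.47, 9.52 and 9.46 in wild-type livers. Vps37b read 7.05, 6.96 and 6.79 in transgenic livers, against 7.45, 7.34 and 7.45 in wild-type livers. Vps37a read 9.30, 9.29 and 9.36 in transgenic livers, against 9.54, 9.53 and 9.56 in wild-type livers. The groups of all 3 genes were apart, Vps37c upward and the other two downward. Vps37c rose by 0.45 (SE 0.06, adjusted p = 0.00126), and its second probe set rose by 0.59. Both are _s_at probe sets, so Vps37c could not be tested without shared-probe suffixes. Vps37b fell by 0.48 (SE 0.08, adjusted p = 0.00341). Vps37a fell by 0.23 (SE 0.06, adjusted p = 0.0224), a call lost without transgenic replicate 1 or 2 or wild-type replicate 2 or 3 (-0.23 to -0.21, adjusted p = 0.0559 to 0.0766), while its second probe set fell by 0.40. Scaling to the bacterial controls shifted every gene by the same 0.37. It put Vps37b at -0.11 and Vps37a at 0.15, with the median of all genes at 0.33. The place of a gene relative to that median cannot change under this scaling.

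Vps28, the other ESCRT-I member of the family, averaged 11.62 ± 0.09 in transgenic and 11.28 ± 0.13 in wild-type livers and rose by 0.34 (adjusted p = 0.019). In ESCRT-II, Vps36 averaged 8.74 ± 0.23 in transgenic and 8.28 ± 0.06 in wild-type livers and rose by 0.47 (SE 0.12, adjusted p = 0.0159). Its second probe set, dim at a mean of 4.59, differed by -0.09, and over their mean the difference was 0.19 and not past the threshold. Vps25 averaged 5.44 ± 0.16 in transgenic and 5.21 ± 0.13 in wild-type livers (0.23, 95% interval -0.01 to 0.48). Vps4a and Vps4b encode the ATPases that take ESCRT-III filaments apart. Vps4b averaged 11.11 ± 0.11 in transgenic and 10.83 ± 0.06 in wild-type livers and rose by 0.28 (adjusted p = 0.0246), while Vps4a differed by -0.03 (-0.27 to 0.21). The call of Vps28 was lost without transgenic replicate 2 or 3 or wild-type replicate 2 or 3 (adjusted p = 0.0537 to 0.0665), and that of Vps36 without wild-type replicate 2 (0.0525). The call of Vps4b was lost without transgenic replicate 1 or 3 or wild-type replicate 1 or 2 (adjusted p = 0.0515 to 0.0786).

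Among the 14 other nexins, 6 rose, 2 fell and 6 did not pass, against 19.9% higher and 20.4% lower of all genes. Their median difference was 0.17, or 0.33 over the 9 genes left without the 40% dimmest. Snx16, a nexin of early and late endosomes, had the largest rise of all 49 genes. It read 7.2, 7.33 and 7.39 in transgenic livers, against 6.66, 6.62 and 6.44 in wild-type livers, and rose by 0.74 (SE 0.09, adjusted p = 0.000515), or 1.67-fold. Snx10, known for its need in bone-resorbing osteoclasts, averaged 8.85 ± 0.06 in transgenic and 8.39 ± 0.22 in wild-type livers and rose by 0.46 (SE 0.11, adjusted p = 0.0152). Snx4, a BAR-domain nexin of recycling tubules, averaged 9.88 ± 0.01 in transgenic and 9.46 ± 0.05 in wild-type livers and rose by 0.42 (SE 0.06, adjusted p = 0.00167). The dimmer of its 2 probe sets differed by -0.20, and over their mean the difference was 0.11 (adjusted p = 0.203).

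Snx14, an endoplasmic reticulum nexin that touches lipid droplets, rose by 0.41 (SE 0.08, adjusted p = 0.00695), with 8.12 ± 0.04 in transgenic and 7.71 ± 0.14 in wild-type livers. Snx15 rose by 0.32 (SE 0.07, adjusted p = 0.00977) and Snx21 by 0.33 (SE 0.09, adjusted p = 0.0214). Snx9, which joins dynamin at forming endocytic vesicles, read 8.68, 8.70 and 8.67 in transgenic livers, against 9.03, 9.07 and 9.0 in wild-type livers. It fell by 0.35 (SE 0.06, adjusted p = 0.0035), whereas its relative Snx18 differed by 0.03 (95% interval -0.11 to 0.18). The second probe set of Snx9 differed by -0.23 and was not called (adjusted p = 0.0945 over all probe sets). Snx29 averaged 4.91 ± 0.16 in transgenic and 5.21 ± 0.05 in wild-type livers, a fall of 0.30 (adjusted p = 0.0344) at a dim level. The remaining 5, Snx11, Snx19, Snx20, Snx22 and Snx30, ran from -0.04 to 0.21 and did not pass. The call of Snx21 was lost without transgenic replicate 2 or 3 or wild-type replicate 3 (adjusted p = 0.0659 to 0.0753). That of Snx29 was lost without transgenic replicate 1 or 3 or wild-type replicate 2 or 3 (adjusted p = 0.0765 to 0.109).

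The other Vps genes went in different directions. Vps45, which guides membrane fusion at early endosomes, averaged 7.46 ± 0.12 in transgenic and 7.17 ± 0.02 in wild-type livers and rose by 0.29 (SE 0.08, adjusted p = 0.022). Vps9d1, with a domain found in RAB5 activators, averaged 7.0 ± 0.07 in transgenic and 7.32 ± 0.17 in wild-type livers and fell by 0.32 (SE 0.10, adjusted p = 0.0326). Vps72 differed by 0.00 (95% interval -0.17 to 0.17). Vps13c, the 1 measured of 4 lipid transfer genes of the VPS13 family, read 3.43 ± 0.04 in transgenic and 3.41 ± 0.05 in wild-type livers, at the dim end of the array where a change is hard to see. The call of Vps45 was lost without transgenic replicate 1 or wild-type replicate 2 or 3 (adjusted p = 0.0544 to 0.0614). That of Vps9d1 was lost without any 1 transgenic array, wild-type replicate 1 or wild-type replicate 2 (adjusted p = 0.055 to 0.103), and averaging its 3 probe sets gave -0.20, not past the threshold.

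The probe sets of a gene often differed, so each was also tested on its own with adjustment over all 20380 single-gene probe sets. Of the 80 sorting probe sets, 26 were called higher and 10 lower, against 18.7% and 17.6% of all probe sets. Of 21 genes with more than 1 probe set, 13 had the same call on all of them: Snx5, Snx12 and Vps37c were higher throughout, Vps37a and Vps54 lower throughout, and 8 not called on any. All 5 probe sets of Snx5 were higher, by 0.60 to 0.74, and both of Snx12, by 0.62 and 0.87. For Snx6, 2 of 3 probe sets were higher, by 0.72 and 0.74, and the remaining one differed by 0.16 (SE 0.08). That last is the 1 Snx6 probe set outside the dropped suffixes, so the call of Snx6 rests on the other 2. Of these the brightest, at 0.72, is _a_at, a suffix for transcripts of the same gene and not for probes shared with other genes. Vps29 was the 1 gene with probe sets called in both directions. Vps11, not called on its brightest probe set, had a dim one that fell by 0.25.

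**Figure D4:**
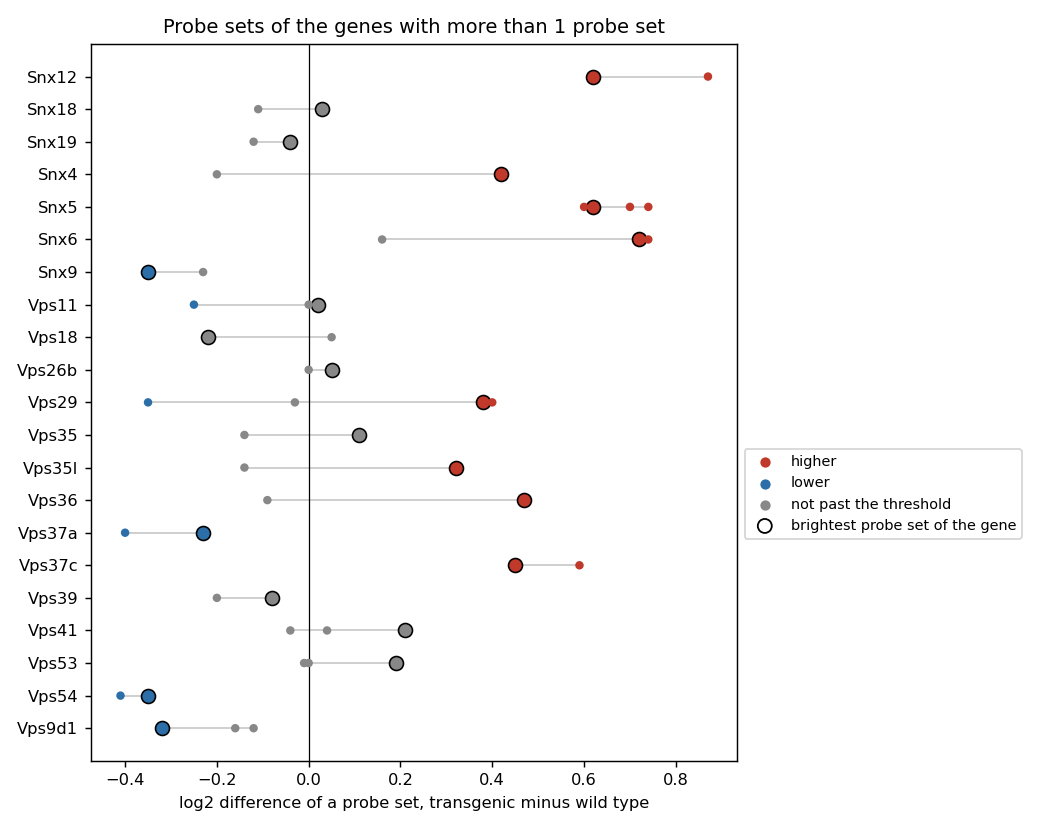
Log2 difference, transgenic minus wild type, of each of the 52 probe sets of the 21 genes with more than 1 probe set, coloured by call with adjustment over all probe sets. Ringed points are the brightest probe set, which represents the gene elsewhere; the 5 points of Snx5 lie together, those of Vps29 on both sides of 0, and Vps53 is not past the threshold on this scale.

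Genes of the same machinery that carry other names were read from a list of 56, of which 48 were measured. Of these 14 rose, 3 fell and 31 did not pass, shares of 29.2% and 6.25% against 19.9% and 20.4% of all genes. The median difference was 0.08. ESCRT-III and its associates had 6 of 12 higher and 0 lower, with a median of 0.31. Chmp4b, a main filament subunit and named after its values were seen, read 11.20, 11.20 and 11.21 in transgenic livers, against 10.70, 10.70 and 10.69 in wild-type livers, a rise of 0.51 (SE 0.06, adjusted p = 0.000473). Chmp4c rose by 0.90 (SE 0.19, adjusted p = 0.00813) from a dim level on 1 of its 2 probe sets, and Chmp1b by 0.53 (SE 0.07, adjusted p = 0.00105). The second probe set of Chmp1b differed by 0.28 and was not called (adjusted p = 0.0974 over all probe sets). In ESCRT-0 the cargo-binding gene Stam rose by 0.66 (SE 0.08, adjusted p = 0.000544). In ESCRT-I, Tsg101, the partner of VPS28 and VPS37, averaged 9.49 ± 0.03 in transgenic and 9.03 ± 0.04 in wild-type livers and rose by 0.46 (adjusted p = 0.00111). Mvb12b fell by 0.25 (adjusted p = 0.0156), a call lost without transgenic replicate 3 or wild-type replicate 2 (adjusted p = 0.0531 to 0.0546), and another of its 3 probe sets was higher by 0.24.

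Vipas39, the partner of VPS33B, rose by 0.40 (SE 0.10, adjusted p = 0.0177), a call lost without transgenic replicate 3 or wild-type replicate 2 or 3 (adjusted p = 0.0555 to 0.0621). Of 9 measured Commander genes, whose products join Retriever, Commd4 rose by 0.34 (adjusted p = 0.00897) and Commd2 by 0.43 (SE 0.14, adjusted p = 0.0423). The Commd2 call was lost without transgenic replicate 2 or any 1 wild-type array (0.26 to 0.46, adjusted p = 0.0593 to 0.112). In the actin-regulating WASH complex Washc2 rose by 0.37 (adjusted p = 0.00619), on 2 of its 4 probe sets. Mtm1, a phosphatase that removes the endosomal lipid PI3P, rose by 0.71 (SE 0.13, adjusted p = 0.00384), but 1 of its 3 probe sets was called lower (-0.46). None of the 3 measured retromer regulators passed by limma, and they ran from 0.02 to 0.09.

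Cargo receptors held both ends of the partner list, with 1 of 5 measured genes higher and 2 lower, against 19.9% and 20.4% of all genes. Igf2r, the mannose 6-phosphate receptor that delivers lysosomal enzymes and returns through endosomes, read 10.31, 10.21 and 10.22 in transgenic livers, against 8.96, 9.49 and 9.33 in wild-type livers. Every transgenic array was above every wild-type array, and it rose by 0.99 (SE 0.13, adjusted p = 0.000894), or 1.98-fold. Lrp1, an endocytic receptor for lipoprotein remnants and proteases, read 9.71, 9.77 and 9.75 in transgenic livers, against 10.82, 10.55 and 10.53 in wild-type livers. It fell by 0.89 (SE 0.09, adjusted p = 0.000258), to 0.541 of its wild-type level. Sort1, the receptor sortilin, fell by 0.28 (SE 0.07, adjusted p = 0.021), a call lost without transgenic replicate 2 or 3 or wild-type replicate 3 (adjusted p = 0.0522 to 0.0712), and all 3 of its probe sets were lower. M6pr, the other mannose 6-phosphate receptor and named after its values were seen, differed by -0.10 (95% interval -0.28 to 0.08).

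**Figure D5:**
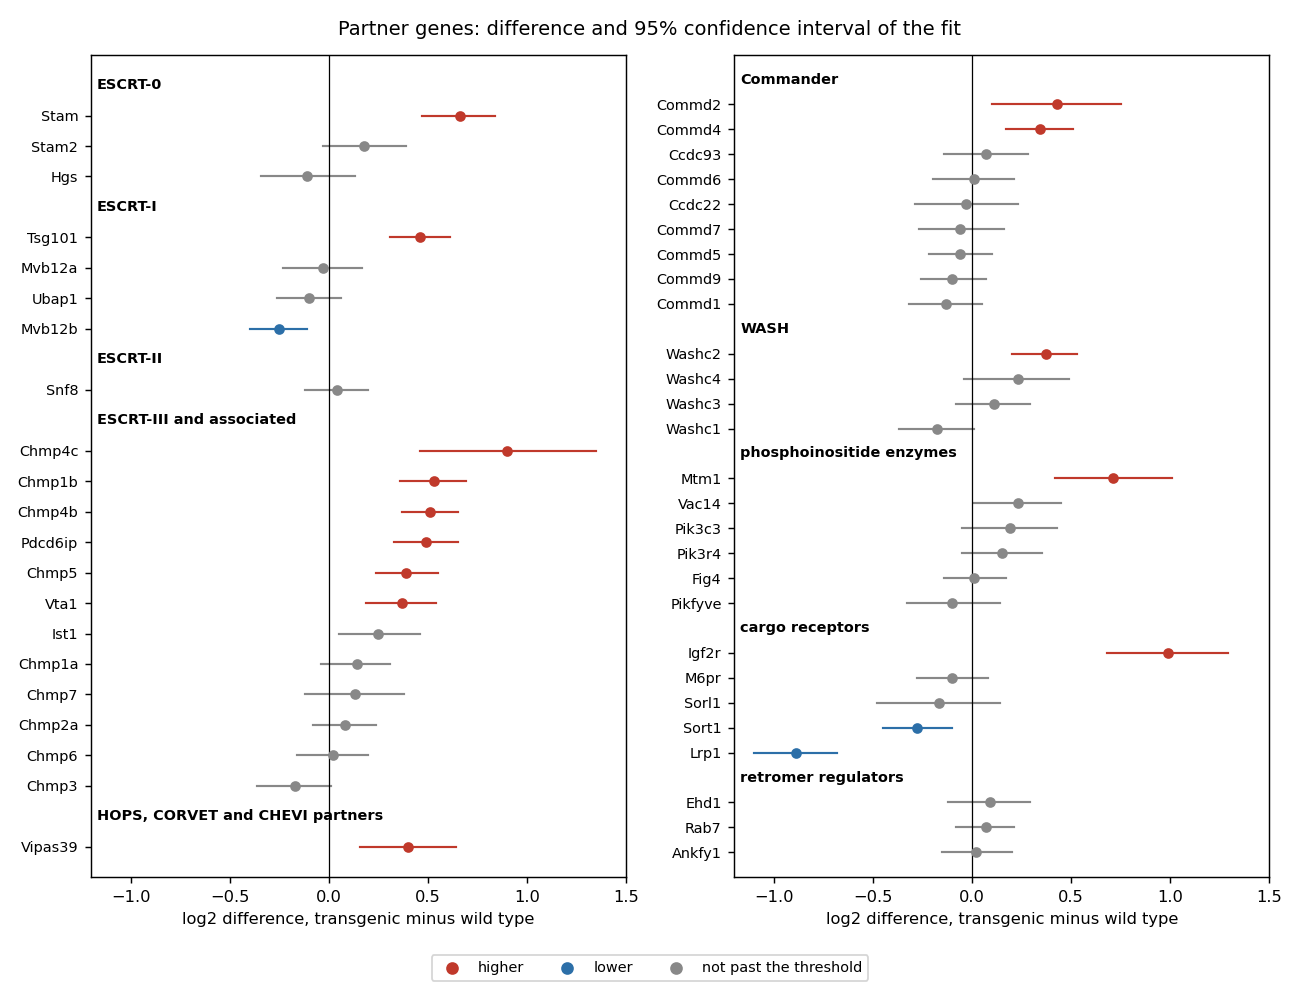
Log2 difference, transgenic minus wild type, of the 48 measured partner genes by complex, with 95% confidence intervals (n = 3 arrays per group) and the same colours for calls. Igf2r at 0.99 and Lrp1 at -0.89 mark the ends, and 6 of 12 ESCRT-III and associated genes lie in the called range upward.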

How the data were processed

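RNA of 6 mouse livers (3 transgenic, 3 wild type) was labelled as biotinylated cRNA for Affymetrix arrays, per the labels' protocols. The authors deposited log2 values per probe set made with affy and RMA, whose versions are not given, per the submitters' processing notes. RMA brings the arrays to nearly 1 distribution, which hides any change in total RNA, and comes with no detection calls. The number of arrays limits the precision. P-values set a difference against the spread between these livers, which eBayes moderates with that of all genes.

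The platform annotation gives 1 gene for 20380 probe sets, several for 691 and none for 1555, beside 64 array controls. By Entrez number 20351 were found in a RefSeq table of GRCm38.p6, which changed 0 symbols. The brightest probe set, by mean of all arrays, stood for each of 12393 genes. Both groups were fitted in limma 3.58.1 under R 4.3.3 (lmFit, eBayes), without covariates. P-values were adjusted by Benjamini-Hochberg across the 12393 genes, with 0.05 as the limit. Python 3.11.15 (pandas 2.3.3, matplotlib 3.10.9) wrote the tables and drew the plots.

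Members, complexes, partner lists and marker lists were chosen with earlier results of these data known. The text names the members of each complex and, of the partners, up to 2 per complex in each direction past the limit. Alternatives tried were averaging probe sets, testing them singly, dropping those with shared-probe suffixes, dropping the 40% dimmest genes, renewed quantile normalization, median centring, scaling to bacterial controls, eBayes with trend and robust options, blocking on the replicate number and omitting each array. Setting members against the 60% brightest genes was added after seeing the data. Deviations of same-numbered arrays correlated at -0.103, -0.022 and 0.057, so the numbers were not taken as pairs. In simulated arrays of this comparison 200 of 12393 genes were changed. There limma found 53.7% of changes of 0.5, 95.5% of changes of 1 and 100.0% of changes of 2 on the log2 scale. It made 6 false calls. In the real arrays 40.3% of genes passed, and the adjustment depends on that share, so these rates do not carry over to them.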

Additional observations from a re-analysis of the deposited data

How the results depend on the processing

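The counts of sorting genes higher and lower, 19 and 6, stayed within 1.5 times under most alternatives. The number higher was 12 (of 39 genes left) without probe sets of shared-probe suffixes, and 41 with 0 lower when scaled to the bacterial controls. With each array left out it was 13 to 16, and the number lower 3 to 6, with 3 without transgenic replicate 1 or wild-type replicate 2. For partner genes the counts were 14 and 3: 40 and 1 when scaled to the bacterial controls, 5 lower with quantile normalization again, 6 with at least 1 probe set lower, and 12 to 14 higher and 1 to 4 lower with each array left out. With the replicate block 17 sorting genes were higher and 4 lower, and the calls of Snx3, Snx29, Vps37a and Vps53 were lost. Of the 25 called sorting genes, 11 were called under every alternative they could be tested in other than the bacterial scaling: Snx1, Snx5, Snx10, Snx12, Snx14, Snx15, Snx16 and Vps37c higher, and Snx9, Vps37b and Vps54 lower. Of these, Snx1, Snx10, Snx12 and Vps37c had no probe set left without shared-probe suffixes. Testing probe sets singly was read there on the brightest probe set of each gene only. Snx6 was 0.16 (adjusted p = 0.151) without shared-probe suffixes, which left 1 of its probe sets. Calls of Snx2, Vps41 and Vps50 were gained without the 40% dimmest genes, of Snx2 and Vps41 with trend and robust options, and of Vps50 over the means of probe sets. Scaled to the bacterial controls the medians were 0.49 for the retromer core, 0.87 for its nexins and 0.34 for HOPS, CORVET and CHEVI. They were 0.63 for ESCRT and 0.54 for other nexins, against 0.33 for all genes. Every gene moved by the same 0.37 there, so the distances between these medians are those of the deposited scale.

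Scaling to the bacterial controls turned the sign of Snx17 (0.32), Snx19 (0.33), Snx20 (0.34), Snx22 (0.34), Snx29 (0.07), Snx9 (0.02), Vps18 (0.15), Vps33b (0.12), Vps37a (0.15), Vps39 (0.29), Vps4a (0.34), Vps54 (0.02), Vps9d1 (0.05), Mvb12b (0.12) and Sort1 (0.10), which the shift of 0.37 for all genes gives by construction. The other sign changes were of genes not past the threshold, and their cause was not tested. Over the mean of probe sets Snx18 was -0.04, Vps11 -0.08 and Vps35 -0.01, and without shared-probe suffixes, on its dimmer probe set, Vps18 was 0.05, against -0.22. With quantile normalization again Snx18 was -0.04, Vps11 -0.05, Vps26b -0.03, Vps26c -0.06 and Vps72 -0.02. With median centring Snx18 was -0.01, Vps11 -0.02, Vps13c -0.02, Vps26c -0.03, Vps52 -0.03 and Vps72 -0.04. With each array left out Snx20 ran from -0.17 to 0.07, Snx22 from -0.11 to 0.04, Vps13c from -0.01 to 0.04, Vps26c from -0.02 to 0.06, Vps4a from -0.13 to 0.06, Vps52 from -0.06 to 0.06 and Vps72 from -0.04 to 0.04. Signal over background is not given for these arrays, so differences of dim genes such as Vps13c and Snx29 may be compressed.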

Other observations

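The annotation pairs 2 further probe sets with both Vps25 and Ramp2, and they were left out of the counts. The brighter read 9.89, 9.92 and 9.91 in transgenic livers, against 9.94, 9.87 and 9.77 in wild-type livers, a difference of 0.05. The other read 8.31, 8.25 and 8.27 in transgenic livers, against 8.17, 8.29 and 8.12 in wild-type livers, a difference of 0.08. Both were brighter than the probe set of Vps25 alone, and in both the groups overlapped.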
